A study of Xenopus laevis with 12 samples.

Results

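Animal cap explants of the frog Xenopus laevis, pieces of the blastula's roof that become embryonic ectoderm, were compared between the early gastrula (stage 10.5) and the late gastrula (stage 12), in samples labelled uninjected. The arrays were chosen by their labels: uninjected explants at stage 10.5 (3 arrays) and uninjected explants at stage 12 (3 arrays), 6 of the 12 arrays of a study of Geminin-regulated genes. The other 6 arrays, from explants injected with Geminin RNA, enter the main comparison only through the normalisation and the filter that removes dim probe sets. For both groups no strain, allele or agent is named. The labels' protocols say that 80 caps went into each sample, cut between stages 8 and 9, and that they were cultured at 25 °C in the salt medium MMR at 0.7x until intact siblings had reached the stage named. Each sample is therefore a pool of explants, and 20 µg of total RNA was taken from it. Per the design text, microinjection, RNA extraction and hybridisation were done 3 separate times. Stage and time in culture after cutting rose together and cannot be told apart here.

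The early frog embryo divides rapidly on RNAs and proteins stored in the egg, and its own genome is switched on at the mid-blastula transition. During gastrulation the stored RNAs are degraded, the cell cycle lengthens, and the ectoderm chooses between epidermis, under Bmp signalling, and neural plate, where Bmp is blocked. An isolated animal cap receives no neural inducer and turns into epidermis, whose surface holds goblet cells and whose inner layer gives rise to multiciliated cells, ionocytes and small secretory cells.

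The 6 arrays fell into their labelled stages, with 61.7% of the variance along a first principal component on which the stage 10.5 arrays lay between -57.29 and -41.57 and the stage 12 arrays between 32.7 and 68.88. Median deposited intensity ranged from 50.07 to 143.1, and no detection calls were used, so dim levels have no firm floor. The stage 12 arrays were not evenly alike. Replicates 2 and 3 correlated at 0.990 over the probe sets tested, and replicate 1 correlated with them at 0.915 and 0.916, while the stage 10.5 arrays correlated at 0.946 to 0.964 with each other. A label field of stage 12 replicate 2, its description, gives stage 10.5 instead; here the title and the stage field decided its group. Replicate 3 of stage 12 had a deposited gmnn.L intensity (geminin) of 4576, against 115.5 and 278.0 in its partners and 232.6 to 375.0 at stage 10.5. On the 6 arrays labelled as injected with Geminin RNA gmnn.L read 3203 to 13754, so this array, labelled uninjected, lies within their range and its geminin level goes against its label. Below, uninjected means labelled so, and counts are also given without replicate 3. Of the markers of other tissues, described as lists further on, tbxt.S (brachyury, mesoderm) ranged over 16.9 to 33.0, myod1.L (muscle) over 16.3 to 48.7 and sox17b.1.S (endoderm) over 14.3 to 34.0 normalised intensity units across the 6 arrays. The 25th percentile of all values on these arrays was 20.98 units. These 3 markers were chosen after their values were seen, and other members of their lists rose. Of 19 tested mesoderm and muscle genes 4 were higher at stage 12 (21.1%, against 11.4% of all probe sets) and 0 lower (against 12.39%), tnni2.S by most. It read 50.5, 46.15 and 20.3 at stage 10.5 and 614, 555 and 514 at stage 12. Of 9 tested endoderm genes 2 were higher and 2 lower (22.2% each, against 11.4% and 12.39% of all probe sets). Without stage 12 replicate 3 the endoderm counts were 0 higher and 1 lower. Because whole explants were measured, fewer cells of a type and less RNA per cell cannot be told apart.

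Between the stages cyclin B RNAs, several sox and zic RNAs and RNAs of some oocyte and maternal genes fell in the animal cap. Mucus genes and many of the tested cilium, keratin and ribosomal protein genes rose. Of 11618 probe sets tested, 2768 passed an adjusted p of 0.05 (23.8%), of which 1328 were higher at stage 12 (11.4%) and 1440 lower (12.39%). At least 2-fold changes numbered 988 higher (8.50%) and 1072 lower (9.23%). The 3 arrays of one stage lay entirely above those of the other for 2532 probe sets higher (21.8%) and 2823 lower (24.3%). Without stage 12 replicate 3 the counts were 848 higher (7.30%) and 904 lower (7.78%), and 1720 of the 2768 calls still passed. The stages did not overlap in 2765 of the 2768, so leaving out arrays could not change the sign of these. Without stage 12 replicate 2 they were 716 (6.16%) and 699 (6.02%), and without stage 12 replicate 1 they were 1477 (12.7%) and 1642 (14.1%). With replicate 1 as the only stage 12 array, the differences of the 2768 were a median of 1.14 times those on all arrays.

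Changes were of unequal size on the 3 stage 12 arrays. Over the called probe sets, replicate 1 carried a median of 1.14 times the average stage difference, replicate 2 carried 0.965 times and replicate 3 carried 0.897 times. The split between higher and lower depended on scaling. The share of calls that were higher was 48.0% after quantile normalisation, 33.0% on the deposited scale and 63.7% after median centring, with a median over all probe sets of -0.04, -0.23 and 0.12 on the log2 scale. All differences below are relative to the first of these.

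**Figure D1:**
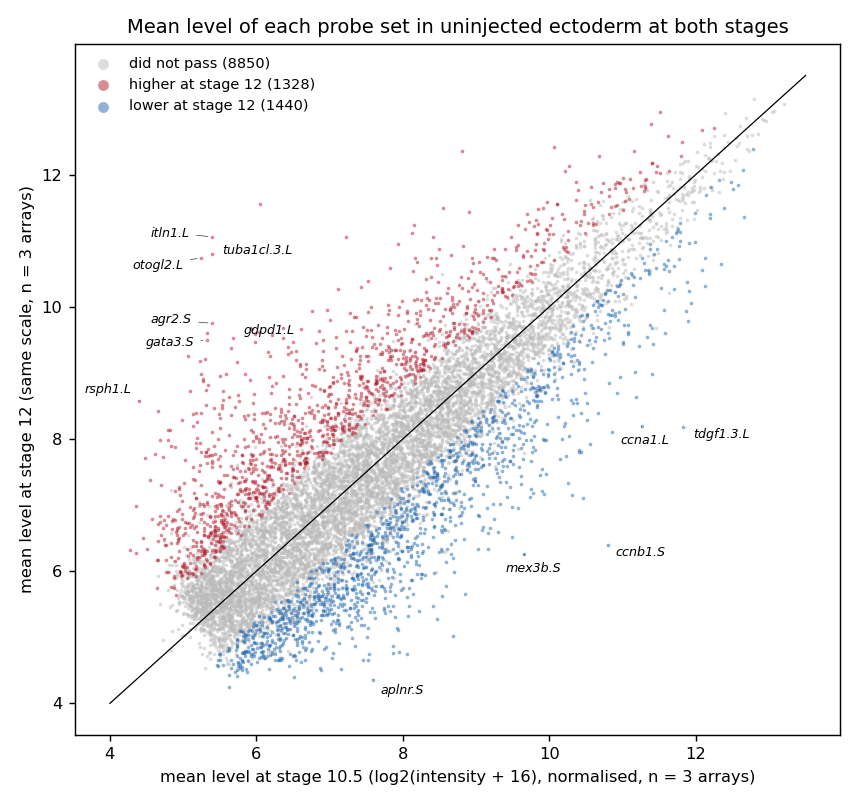
Mean level of each of the 11618 probe sets at stage 10.5 (horizontal) and stage 12 (vertical), both as log2(intensity + 16) after quantile normalisation, n = 3 arrays each; the line marks equal levels. Red points (1328) passed as higher and blue points (1440) as lower, and named points are some of the genes with the largest changes, such as itln1.L, 5.67 higher, and ccnb1.S, at -4.41 on the log2 scale.

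Mucus genes led the rises. The probe set for itln1.L, intelectin, a lectin that epidermal goblet cells secrete, read 21.8, 33.5 and 23.3 normalised intensity units in the stage 10.5 replicates and 3839.9, 1666 and 1488 in the stage 12 replicates, in replicate order. It was near the bottom of the range at the early stage and among bright genes at the late one, a rise of 5.67 ± 0.37 on the log2 scale (SE, n = 3 arrays per stage), or 51.0-fold (limma, adjusted p = 0.000429). Otogelin-like otogl2.L, a mucin-related protein of epidermal mucus, went from 28.2, 26.4 and 12.9 to 2398, 1445 and 1409.6, a rise of 5.5 ± 0.30. Its other probe sets gave 3.23, which passed, and 0.92, which did not (adjusted p = 0.0927). The oxidoreductase agr2.S, which helps fold mucins, went from 29.3, 31.8 and 17.8 to 956, 849 and 749, a rise of 4.37 ± 0.25, and its copy agr2.L rose by 3.00 ± 0.33. The related ag1.S, named for the cement gland, rose by 3.61 ± 0.38 (other probe set 2.94).

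Of the goblet and small secretory cell list, 7 of 10 genes on the array were tested. Of these 4 rose (57.1%, against 11.4% of all probe sets) and 1 fell (14.3%, against 12.39%), with a median of 1.06. Besides itln1.L and both agr2 copies, foxa1.S, a factor of small secretory cells, went from 18.8, 17.5 and 31.3 to 73.4, 58.1 and 58.7, and b3gnt5.S, a glycosyltransferase, from 76.3, 56.7 and 60.4 to 34.0, 12.0 and 25.97. Both changes were small and near the floor: the call on foxa1.S (1.06 ± 0.24) was lost without stage 10.5 replicate 1 or 2 or stage 12 replicate 2 or 3 (highest adjusted p 0.068). The call on b3gnt5.S (fell by 1.04 ± 0.28) was lost without any single array other than stage 12 replicate 1 (highest adjusted p 0.123). The list had 3 higher and 0 lower without stage 12 replicate 3. The unfolded-protein factor xbp1.L was bright at both stages, 2168, 2746 and 1841 at stage 10.5 and 1701, 1889 and 2014 at stage 12, with overlapping groups.

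Keratin genes rose or did not pass. None passed as lower, though 2 had a negative difference. The array held 20 genes of the list, 11 were tested and 6 were higher (54.5%, against 11.4% of all probe sets), with a median of 0.97. The type I keratin krt12.4.S read 319.5, 128 and 51.7 at stage 10.5 and 2857, 1780.0 and 1818 at stage 12, so the lowest late array was well above the highest early one. The rise was 3.83 ± 0.52, its copy krt12.4.L rose by 2.95 ± 0.50, and krt12.5.S rose by 3.1 ± 0.58. All 3 of these genes were highest at stage 10.5 in replicate 1 and lowest in replicate 3. Keratin 8-type krt8.1.S was already bright, 1822, 1105 and 896, and reached 5955, 3608 and 4175, a rise of 1.86 ± 0.29. The brightest keratin, krt70.S, read 7743, 7743 and 5955 and then 9407, 8792 and 8792. Its groups did not overlap, but the difference of 0.34 ± 0.13 did not pass (adjusted p = 0.0861). Its copy krt70.L rose by 2.1 ± 0.50, a call lost without stage 10.5 replicate 2 (adjusted p = 0.0608). Keratin krt18.1.L was flat at 808, 1274 and 1002 at stage 10.5 and 980.2, 1022 and 989 at stage 12. Leaving out stage 12 replicate 3 again gave 6 higher and 0 lower. Without stage 10.5 replicate 1 there was 1 lower keratin.

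**Figure D2:**
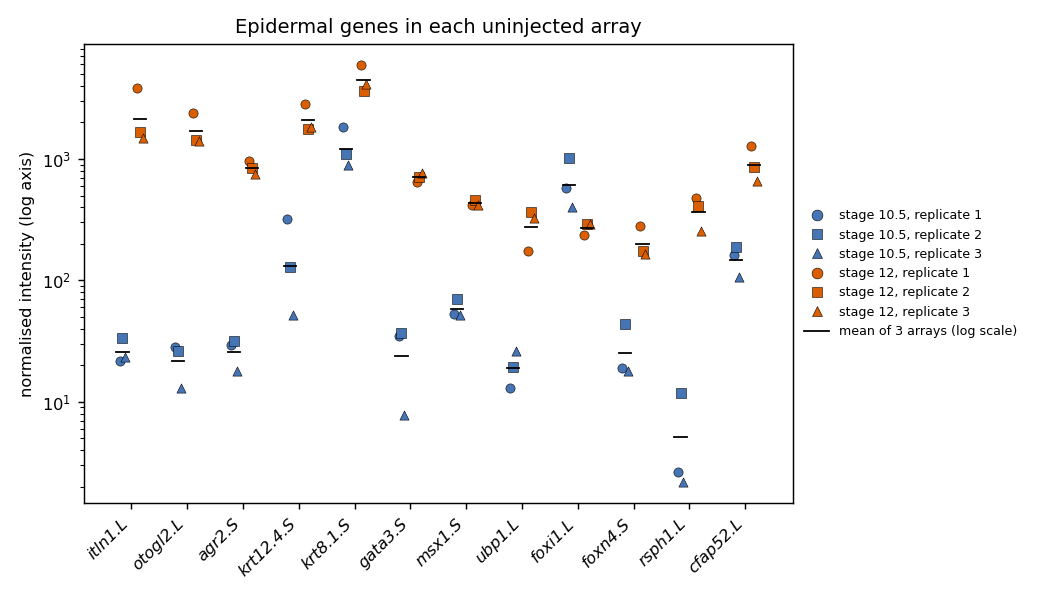
Normalised intensity (log axis) of 12 epidermal genes on each array, blue for stage 10.5 and orange for stage 12, with the marker shape giving the replicate and the bar the mean of 3 arrays on the log scale. Mucus, keratin and cilium genes lie higher on all 3 stage 12 arrays; foxi1.L lies lower, from 575, 1013 and 399 to 238, 289.9 and 289.

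The epidermal regulators split into those that rose and those that fell. Of 25 tested transcription factors (29 on the array), 10 were higher (40.0%, against 11.4% of all probe sets) and 6 lower (24.0%, against 12.39%), with a median of 0.43. GATA factor gata3.S went from 34.7, 36.6 and 7.81 to 646, 707 and 769.6, a rise of 4.18 ± 0.34 (18.09-fold, adjusted p = 0.000656). Homeobox factor msx1.S, a direct Bmp target, went from 53.2, 70.4 and 51.5 to 417, 458 and 416, and msx1.L from 398, 245 and 245 to 949, 1202 and 1120.5. The rises were 2.59 ± 0.23 and 1.85 ± 0.24, and the late replicates of each lay close together. Grainyhead-like grhl1.L, which drives keratin genes, rose by 1.74 ± 0.27.

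Among the factors that fell, prdm1.S (Blimp1) went from 366, 448 and 277 to 45.4, 59.1 and 93.3, a difference of -2.23 ± 0.30 (other probe sets -1.54 and -2.58, both passing). The AP-2 factor tfap2a.L, needed for epidermis and border fates, fell from 3045, 3593 and 2869 to 1259, 1576 and 1598 and stayed bright. Its call was lost on the deposited scale (adjusted p = 0.273) and after median centring (adjusted p = 0.0698). Krüppel-like factor klf17.L went from 2696, 3567 and 2303 to 275, 1284 and 1455; its groups did not overlap, yet the difference of -1.78 ± 0.56 did not pass (adjusted p = 0.0507), with replicate 1 far below the other late arrays. It passed with the replicate number as a block (adjusted p = 0.024), and its other probe set had overlapping groups and gave -1.34 (adjusted p = 0.136). The early epidermal factor gata2.L overlapped between stages on both of its probe sets (-0.33 and 0.77, neither passing). The list had 7 higher and 5 lower without stage 12 replicate 3, and without stage 10.5 replicate 2 the number lower was 3. It was 2 on the deposited scale and after median centring.

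Of the Bmp pathway, which specifies epidermis, 35 of 38 genes on the array were tested, and 6 were higher (17.1%, against 11.4% of all probe sets) and 5 lower (14.3%, against 12.39%), with a median of 0.33. Both shares are near those of all probe sets. The ligand bmp7.1.L went from 58.0, 66.0 and 49.4 to 467, 408 and 329.5, a rise of 2.49 ± 0.24. The related bmp7.2.L, brighter at both stages, went from 3992, 4426 and 3763 to 2696, 2588 and 2881 and passed as lower (-0.57 ± 0.13, adjusted p = 0.0166). Ligand bmp4.S did not pass (0.47 ± 0.34). A further ligand, bmp2.L, dim throughout, went from 36.2, 20.7 and 46.8 to 7.77, 3.13 and 5.93 (fell by 1.2 ± 0.26, a call lost without stage 12 replicate 2, adjusted p = 0.0552). The signal transducer smad9.S rose by 2.01 ± 0.26, from 42.9, 47.1 and 49.5 to 312, 228 and 182. Tolloid-like tll1.S, a protease that frees Bmp by cutting Chordin, rose by 1.72 ± 0.32 from a dim level. Of the Id target genes, id2.S rose by 1.66 ± 0.26, while id2.L stayed at 3131, 2631 and 1789 at stage 10.5 and 2116, 2845 and 3078 at stage 12. The probe set for id3 went from 2211, 2003 and 1673 to 1233, 1062 and 1095, a difference of -0.78 ± 0.17 lost without stage 10.5 replicate 2 or stage 12 replicate 2 or 3 (highest adjusted p 0.066), and its other probe set gave -0.34 and did not pass. The separate entry id3.S read 3804, 2971 and 446 and then 1758, 2486 and 2383. Its groups overlapped and its difference of 0.34 ± 0.69 did not pass (adjusted p = 0.747). Target ventx2.1.S was level at 1984, 1736 and 1746 at stage 10.5 and 1977, 1758 and 1728 at stage 12. The number lower was 3, 2 and 3 without stage 10.5 replicates 1, 2 and 3, and 0 and 2 without stage 12 replicates 2 and 3. It was 2 on the deposited scale and 0 after median centring, where 10 were higher. The number higher was 5 without stage 12 replicate 3.

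Of 23 tested genes of multiciliated cells, which beat mucus across the skin (29 on the array), 14 were higher (60.9%, against 11.4% of all probe sets). None was lower, and the median was 1.12. For 22 of the 23 the late arrays all lay above the early ones (21.8% of all probe sets did so). Radial spoke gene rsph1.L went from 2.62, 11.8 and 2.17, at the bottom of the scale, to 476, 409.7 and 253, a rise of 4.18 ± 0.32. Another spoke gene, rsph9.L, went from 70.0, 85.5 and 86.0 to 652, 560.0 and 409.7. Ciliary protein cfap52.L went from 162, 187 and 106 to 1275, 855 and 663 and cfap52.S rose by 3.07 ± 0.30. In each of these 4 genes replicate 3 was the lowest of the late arrays. The forkhead factor foxn4.S, which acts with the multiciliated cell program, went from 18.9, 43.8 and 17.9 to 278, 175 and 166, a rise of 2.39 ± 0.33 (adjusted p = 0.00251). Ciliary factor rfx2.S read 318, 269.9 and 269 and then 473, 390.2 and 372, a difference of 0.50 ± 0.21 that did not pass (adjusted p = 0.121). The beta-tubulin tubb4b.L was bright at both stages, with a difference of 0.35 ± 0.12 that did not pass (adjusted p = 0.0705). On the arrays other than stage 12 replicate 3, 11 were higher and 0 lower. Alpha-tubulin gene tuba1cl.3.L, outside the list, went from 8.17, 2.78 and 145 to 1438, 2143 and 1773, and its other probe sets rose by 1.6 and 2.35.

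Ionocyte genes gave few calls. Of 9 tested (13 on the array) 2 were higher (22.2%, against 11.4% of all probe sets) and 1 lower (11.1%, against 12.39%), with a median of 0.08. The ionocyte factor ubp1.L went from 13.1, 19.5 and 26.1 to 174, 368 and 324, a rise of 3.05 ± 0.33. By contrast the forkhead factor foxi1.L, which specifies ionocytes but is expressed earlier across the ectoderm, read 575, 1013 and 399 and then 238, 289.9 and 289. Its difference of -1.14 ± 0.33 (adjusted p = 0.04) was lost without any single array other than stage 10.5 replicate 3 (highest adjusted p 0.0938). The proton pump subunit atp6v0d2.L, low at both stages, rose by 1.04 ± 0.26, a call lost without any stage 10.5 array or stage 12 replicate 2 (highest adjusted p 0.0825). The general pump subunits atp6v1e1.L and atp6v1b2.S did not pass, at 0.08 ± 0.20 and -0.00 ± 0.22. Leaving out any stage 10.5 array or stage 12 replicate 2 brought the number higher to 1, and leaving out any array other than stage 10.5 replicate 3 brought the number lower to 0.

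Of 48 tested junction and adhesion genes (58 on the array) 8 were higher (16.7%, against 11.4% of all probe sets) and 9 lower (18.8%, against 12.39%), and their median was 0.00. The desmosome and envelope plakin ppl.L (periplakin) went from 22.1, 17.9 and 17.1 to 327, 338 and 287, a rise of 3.25 ± 0.23 with late arrays close together (other probe set 1.69), and its partner evpl.L (envoplakin) rose by 2.03 ± 0.37. E-cadherin cdh1.S went from 43.6, 83.7 and 49.1 to 187, 288 and 274, and cingulin cgn.L of tight junctions rose by 1.3 ± 0.24. A pair of brighter genes fell. Claudin cldn6.1.S went from 1987, 1503 and 1977 to 799.9, 878 and 1124 and the adhesion molecule epcam.S from 3269, 3410.5 and 3793 to 2466, 1697 and 1689. Their calls were lost without stage 12 replicate 2 (adjusted p = 0.0511 and 0.0533), on the deposited scale and after median centring. Claudin cldn7.L was level, 4586, 3737 and 3862 at stage 10.5 and 3378, 4079 and 4104 at stage 12. The number higher was 5 without stage 10.5 replicate 2 or 3 and 4 without stage 12 replicate 2 or 3. The number lower was 3, 5 and 5 without stage 10.5 replicates 1, 2 and 3, and 2 and 5 without stage 12 replicates 2 and 3. The deposited scale gave 4 higher and 3 lower. Median centring gave 12 higher and 2 lower, with a list median of 0.4, so the split depended on scaling.

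Of 27 tested factors that keep early ectoderm uncommitted (34 on the array) 11 were lower (40.7%, against 12.39% of all probe sets) and 1 higher (3.70%, against 11.4%). SoxB1, Zic and SoxC genes were among those lower, 15 of the list did not pass, and its median was -0.87. The SoxB1 factor sox3.S, which holds neural competence, went from 1099, 1355 and 1611 to 198, 189.8 and 259, and no late array came near the early ones. The difference was -2.56 ± 0.23 on the log2 scale (5.90-fold, adjusted p = 0.000777). Zinc-finger factor zic2.L went from 714, 508 and 475 to 37.5, 80.1 and 88.0, and sox11.S from 1196, 906 and 1603 to 66.9, 207 and 208. For both, replicate 1 was the lowest late array. Geminin copy gmnn.S went from 723, 672 and 1690.5 to 78.07, 261 and 235, a difference of -2.35 ± 0.49. Its copy gmnn.L did not pass (1.09 ± 0.99, adjusted p = 0.45, and -0.21 without stage 12 replicate 3).

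The Oct factors of the pou5f3 family, relatives of mammalian Oct4, gave calls in both directions. The egg-deposited pou5f3.3.L went from 549, 601 and 1803 to 37.3, 222 and 259, a difference of -2.50 ± 0.68 whose call was lost without any single stage 10.5 array (highest adjusted p 0.0996). Its relative pou5f3.2.L went from 4888, 5562 and 5562 to 2165, 3072 and 3529 (fell by 0.89 ± 0.19, lost without stage 10.5 replicate 2, adjusted p = 0.05, on the deposited scale and after median centring, where it was -0.06). In the same arrays pou5f3.1.L, switched on in the embryo, went from 3195, 2835 and 2471 to 4557, 4363 and 4461, a rise of 0.66 ± 0.14. That call was lost on the deposited scale (adjusted p = 0.0737), without the intensity trend (0.0527), with all 12 arrays and the experiment as a random block (0.0527) and with stage 12 replicate 1 alone (0.0713). Chromatin factor dppa2.L was level (0.01 ± 0.22). Leaving out stage 12 replicate 3 gave 10 lower and 1 higher. The number lower was 5, 4 and 7 without stage 10.5 replicates 1, 2 and 3.

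Neural plate markers overlap this list through the sox and zic genes. Of 16 tested (38 on the array) 10 were lower (62.5%, against 12.39% of all probe sets) and 1 higher (6.25%, against 11.4%), with a median of -1.22. The mean level of the list ranged from 8.13 to 8.35 at stage 10.5 and from 6.80 to 7.29 at stage 12 in log2 units. The brightest zic1.S probe set went from 220.5, 211.8 and 188.3 to 21.98, 30.5 and 33.3 (fell by 2.33 ± 0.24), and a second one fell by 3.17. The 1 riser was msi1.S (Musashi), at 1.68, and the number higher was 2 without stage 12 replicate 1. The number lower was 8 without stage 12 replicate 3, 5 and 6 without stage 10.5 replicates 1 and 2, and 6 without stage 12 replicate 2. Neuronal markers gave 2 higher of 10 tested (20.0%, against 11.4% of all probe sets), dll1.L (a Notch ligand) and prph.L (peripherin). Both calls were lost without stage 12 replicate 3 (0 higher). The number was also 0 without stage 12 replicate 2 and 1 without any single stage 10.5 array. The neuronal RNA-binding gene elavl3.L read 47.9, 79.7 and 25.7 and then 97.6, 52.1 and 34.8.

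Of 57 tested oocyte and maternal genes, whose RNAs are stored in the egg (63 on the array), 21 were lower (36.8%, against 12.39% of all probe sets). Of the others 2 were higher (3.51%, against 11.4%) and 34 did not pass, and the list median was -0.75. Oocyte RNA-binding protein gene patl2.L went from 284, 195 and 405 to 17.2, 29.1 and 34.6, a difference of -2.82 ± 0.32 (7.06-fold, adjusted p = 0.00148). The T-box factor vegt.L, an RNA of the vegetal egg cortex, went from 206, 143 and 400.4 to 8.65, 23.7 and 26.4. The meiotic kinase mos.L went from 819, 1150.4 and 1758 to 109, 255 and 272 (other probe set -1.62, passing), and lipid droplet coat gene plin2.S from 823, 544 and 951 to 117, 234 and 196. In patl2.L, vegt.L and mos.L replicate 1 was again the lowest late array. The 2 that rose, eif4e1b.S and mcm6.2.S, are described with their relatives below. Nucleoplasmin relatives npm3.L and npm3.S did not pass, at -0.09 ± 0.22 and -0.35 ± 0.19. There were 17 lower and 0 higher without stage 12 replicate 3. The number lower was 11 and 13 without stage 10.5 replicates 1 and 3. The number higher was 1, 0 and 0 without stage 10.5 replicates 1, 2 and 3, 0 without stage 12 replicate 2 and 5 without stage 12 replicate 1.

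Of the machinery that degrades such RNAs, 31 of 32 genes on the array were tested, and 5 were higher (16.1%) and 4 lower (12.9%), shares near the 11.4% and 12.39% of all probe sets, with a median of -0.09. The BTG-family gene btg4.S, which recruits the deadenylase to maternal RNAs in mouse oocytes, went from 407, 135 and 291 to 41.9, 14.7 and 20.1, and btg4.L from 143, 69.8 and 429.7 to 12.08, 17.1 and 19.9. The deadenylase subunit pan3.S fell from 146, 189 and 271 to 56.5, 61.6 and 53.2. In the other direction, tob1.S, a BTG/Tob relative, went from 35.1, 31.6 and 39.4 to 206, 132 and 140.1, and btg1.L from 828.9, 1006 and 1771 to 2982, 2563 and 2614, a rise of 1.24 ± 0.27 lost without stage 10.5 replicate 2 (adjusted p = 0.0543). AU-element binding zfp36.L rose by 2.00 ± 0.36. Its relative zfp36l2.S gave 0.56, not passing, on its brighter probe set and -1.42, passing, on the other, so no direction is given. There were 3 higher and 5 lower without stage 12 replicate 3, and 3 higher without stage 12 replicate 2. Without stage 12 replicate 1 there were 7 higher and 7 lower.

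In 12 families an egg-type gene was set beside a relative used in somatic cells. In the pou5f3 and MCM6 families that relative is instead a form switched on in the embryo. Egg-type cyclin A, ccna1.L, went from 2409, 1982 and 3045 to 100.1, 410.4 and 485 and ccna1.S from 1208, 1041 and 2625 to 274, 192 and 221, differences of -3.07 ± 0.51 and -2.63 ± 0.35. Somatic cyclin A2, ccna2.L, went from 1728, 2036 and 1422 to 429, 875 and 935, a difference of -1.26 ± 0.31 lost without stage 10.5 replicate 1 or 2 (highest adjusted p 0.0776). Its copy ccna2.S fell by 1.57 ± 0.44, a call lost without replicate 1 or 2 of either stage (highest adjusted p 0.113). Whether the falls of the egg and somatic forms differ was not tested.

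Of the Wee kinases, which hold back mitosis, egg-type wee2.L went from 689, 518 and 994 to 136, 241 and 234 and wee2.S fell by 1.63 ± 0.40 (lost without stage 10.5 replicate 1 or 3, highest adjusted p 0.0788). Somatic wee1.L read 52.1, 191 and 363 and then 425, 388 and 476, a difference of 1.34 ± 0.55 that did not pass (adjusted p = 0.109) and whose early arrays spread widely. The egg linker histone h1-8.S went from 682, 468 and 611 to 308, 307 and 291, a difference of -0.91 ± 0.22 lost without stage 10.5 replicate 1 or 3 or stage 12 replicate 2 or 3 (highest adjusted p 0.0767).

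Other families did not follow that direction. The egg-type cap-binding eif4e1b.S went from 46.0, 42.1 and 23.6 to 83.6, 121 and 102, a rise of 1.16 ± 0.27 that was lost without stage 10.5 replicate 2 or 3 or stage 12 replicate 2 or 3 (highest adjusted p 0.079). Of the MCM6 helicase subunits, maternal mcm6.L was level at 137, 124 and 105 at stage 10.5 and 104, 122 and 139 at stage 12, while mcm6.2.S, annotated as the zygotic form though kept in the maternal list, went from 57.5, 66.8 and 54.5 to 178, 110.2 and 107 (0.94 ± 0.27, lost without any single array other than stage 12 replicate 1, highest adjusted p 0.0972). Somatic pabpc1.L, the poly(A)-binding protein, fell by 0.62 ± 0.18, a call lost without any single array other than stage 12 replicate 1 (highest adjusted p 0.152). Its brighter copy pabpc1.S had overlapping groups and did not pass (-0.56 ± 0.23). Egg-type pabpc1l.L and pabpc1l.S did not pass (-0.59 and 0.02). The histone stem-loop binding gene slbp.L fell by 0.75 ± 0.15, lost without stage 12 replicate 2 or 3 (highest adjusted p 0.0521), while its copy slbp.S was level (-0.01 ± 0.22). The egg Y-box genes ybx2.L and ybx2.S, nucleoplasmins npm2.L and npm2.S with somatic npm1.L and npm1.S, and APC/C inhibitors fbxo43.L and fbxo5.S did not pass, with differences from -0.77 to 0.55. The somatic partners eif4e, ybx1 and btg2 and the egg form slbp2 were not tested here.

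**Figure D3:**
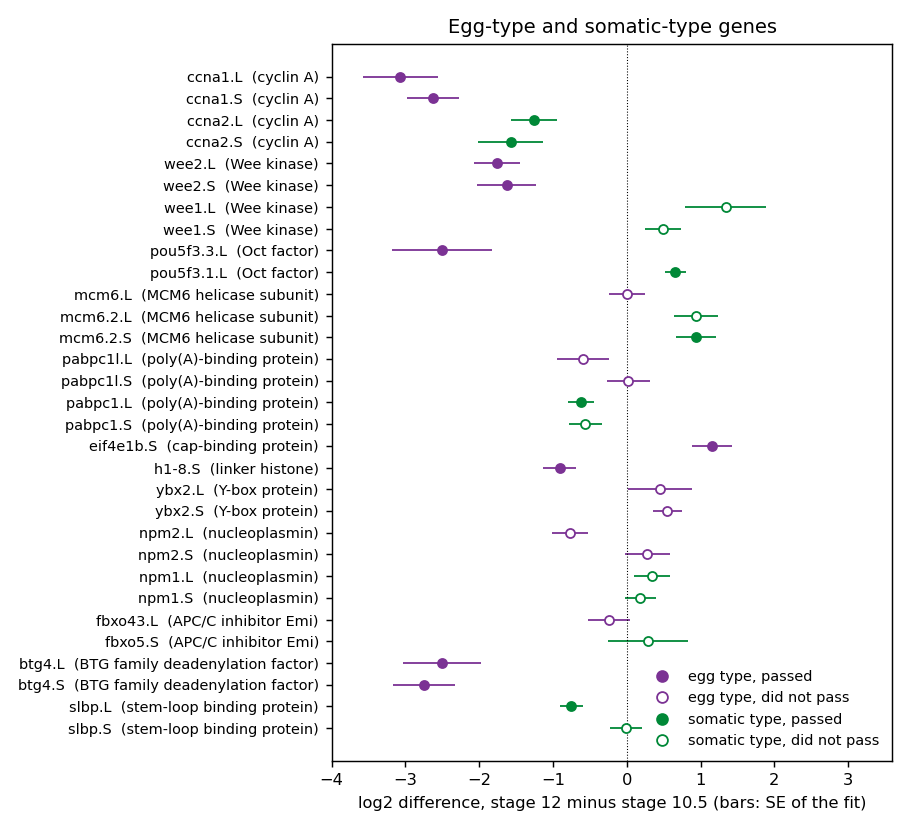
Log2 difference between stages (stage 12 minus stage 10.5) for egg-type (purple) and somatic-type (green) members of 12 gene families, with the SE of the fit as a bar; filled points passed the test. Egg-type ccna1, wee2, btg4 and pou5f3.3.L lie left of 0, while somatic wee1.L and wee1.S lie right of it without passing. Green also marks pou5f3.1.L and the mcm6.2 copies, which are forms switched on in the embryo.

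Of 98 tested mitotic genes (99 on the array) 29 were lower (29.6%, against 12.39% of all probe sets) and 2 higher (2.04%, against 11.4%). The other 67 did not pass, and the median was -0.46. Cyclin B, which drives entry into mitosis with Cdk1, fell in every copy named. The largest fall over all named genes was ccnb1.S, from 1517, 1197 and 3006 to 30.9, 89.8 and 103, a difference of -4.41 ± 0.45 on the log2 scale (21.2-fold, adjusted p = 0.00101). The brighter ccnb1.2.L went from 5022, 4888 and 5724 to 1665, 1467 and 1599.5, ccnb2.L from 4175, 4461 and 4682 to 1248, 1141 and 1423, and ccnb2.S from 3653, 3852 and 3982 to 1250.4, 1124 and 1213. In these 3 the replicates of a stage lay within narrow limits and the differences were -1.71 ± 0.13, -1.80 ± 0.14 and -1.67 ± 0.14. The anaphase activator cdc20.L went from 1537, 1568 and 2349 to 363, 463 and 515. Polo kinase plk1.S read 2462, 2820.1 and 3627 and then 1496, 2335 and 2446; the groups did not overlap, but the difference of -0.52 ± 0.23 did not pass (adjusted p = 0.136). The ubiquitin-conjugating enzyme ube2c.S, which works with the anaphase-promoting complex, overlapped between stages (-0.03 ± 0.25). The 2 risers were the kinase nek2.S (1.74; another probe set 0.68, not passing) and the condensin subunit smc4.L (0.77). When stage 12 replicate 3 was left out there were 25 lower and 1 higher, and without stage 10.5 replicate 1 there were 19 lower. The deposited scale gave 18 lower. Without stage 10.5 replicate 2 or any single stage 12 array, 1 was higher.

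Of 78 tested replication genes (80 on the array) 22 were lower (28.2%, against 12.39% of all probe sets) and 3 higher (3.85%, against 11.4%). The licensing factors Cdc6 and Cdt1 were among those lower, and the median was -0.45. The licensing factor cdc6.L went from 3249, 3045 and 2000.3 to 554, 689.9 and 815, cdc6.S from 1101, 1138 and 1949.5 to 124, 238 and 294, and cdt1.L, the partner of Geminin, from 1725, 1528 and 2739 to 307, 457 and 459.8. The differences were -1.97 ± 0.24, -2.62 ± 0.35 and -2.22 ± 0.27, and a second cdt1.L probe set gave -0.84, also passing. Single-strand binding subunit rpa3.S went from 398, 539 and 688 to 79.1, 88.7 and 91.0, the maintenance methyltransferase dnmt1.S from 1200.4, 619.7 and 869 to 172, 219 and 279.7, and the uracil glycosylase ung.L from 969.7, 1195 and 1339 to 156, 359 and 373. The helicase subunit mcm7.L was level, 2371, 2155 and 2221 at stage 10.5 and 2099.5, 2244 and 2226 at stage 12 (-0.04 ± 0.13), and the sliding clamp pcna.L read 3891, 3763 and 4187 and then 2314, 3529 and 3553 (-0.36 ± 0.18, adjusted p = 0.188). Ribonucleotide reductase subunit rrm2.1.L overlapped between stages. The 3 risers were topbp1.L (1.67), pole3.L (0.91) and mcm6.2.S (0.94). There were 17 lower and 1 higher without stage 12 replicate 3. The number lower was 14 and 13 without stage 10.5 replicates 1 and 2. There were 0 higher without either of these and 1 without stage 10.5 replicate 3 or stage 12 replicate 2.

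**Figure D4:**
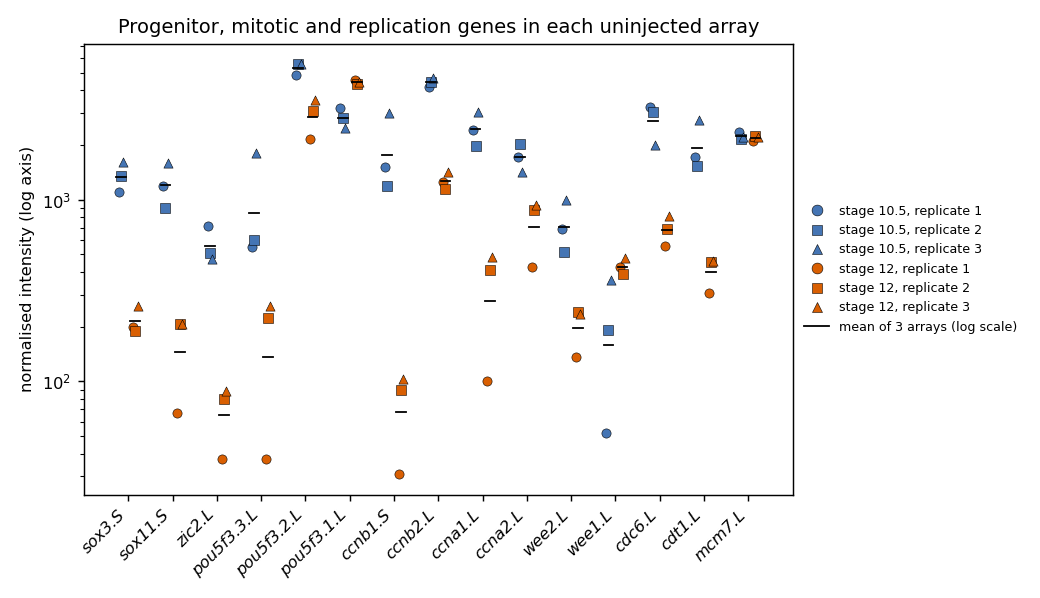
Normalised intensity (log axis) of 15 progenitor, mitotic and replication genes on each array, colours and shapes by stage and replicate and bars at the mean of 3 arrays on the log scale. Cyclin, licensing, sox and zic genes lie lower on all 3 stage 12 arrays, with replicate 1 often lowest; pou5f3.1.L lies higher and mcm7.L is level.

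A list of inhibitors of the cycle, G1 regulators and stress-arrest genes also holds drivers of the cycle such as E2F, cyclin D and Cdk4. It had 3 higher and 3 lower of 32 tested (34 on the array, 9.38% each). Both shares are below the 11.4% higher and 12.39% lower of all probe sets. The median was -0.17 (-0.34 on the deposited scale and 0.01 after median centring). The risers were the antiproliferative genes tob1.S and btg1.L, given above, and the stress-arrest gene gadd45a.S, which went from 216, 213 and 56.3 to 888, 447 and 479 (1.92 ± 0.49, lost without stage 12 replicate 1, adjusted p = 0.0578). Of those that fell, e2f3.S is a transcription factor that drives S-phase genes, from 1083, 1085 and 881 to 426, 541 and 577. The stress gene sesn1.L (fell by 1.36 ± 0.29, lost without replicate 2 of either stage, highest adjusted p 0.054) and foxo3.L (fell by 1.05 ± 0.26, lost without stage 10.5 replicate 2 or 3 or stage 12 replicate 2, highest adjusted p 0.0774) were dim. The G1 genes ccnd1.S (0.57 ± 0.21) and cdk4.S (-0.24 ± 0.19) did not pass. The counts were again 3 and 3 without stage 12 replicate 3. The number higher was 5 without stage 10.5 replicate 3, and the number lower was 1 without stage 10.5 replicate 2 or stage 12 replicate 2 and 6 without stage 12 replicate 1.

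Of 71 tested ribosomal protein genes (73 on the array) 42 were higher (59.2%, against 11.4% of all probe sets), by at most 1.67 on the log2 scale. Of the others 1 was lower (1.41%, against 12.39%) and 28 did not pass. The list median was 0.74, and 69 of the 71 had a positive difference. Large-subunit gene rpl35a.S went from 1476, 1216 and 1237 to 3627, 3966 and 3688, a rise of 1.51 ± 0.14, rpl39.L from 1189.6, 1038 and 1019 to 3072, 3117 and 2786, and small-subunit rps9 from 799, 897 and 711 to 2366, 2381 and 2172. In each, the replicates of a stage lay close together relative to the gap between stages. Among the brightest members, rps18.L (-0.01 ± 0.13) and the brightest probe sets of rps29.S (0.22 ± 0.11) and rps27.S (0.32 ± 0.14) did not pass. The other rps29.S probe sets rose by 0.57 and 0.84, and of the other rps27.S probe sets 1 passed, at 0.42. The 1 that fell was rps12.S, from 3719.8, 3148 and 3520.0 to 2193, 2423 and 2273 (fell by 0.59 ± 0.13), while its copy rps12.L went from 1390.1, 1104 and 704 to 2654, 2542 and 2578, a rise of 1.32 ± 0.24. The count depended on scaling: 24 were higher on the deposited scale and 64 after median centring. Leaving out stage 12 replicate 3 gave 30 higher and 0 lower, and the call on rps12.S was also lost without stage 10.5 replicate 1 or stage 12 replicate 2. Its adjusted p was 0.0624 without stage 12 replicate 3.

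Markers of other fates gave calls in both directions. Of 19 tested neural crest and border markers (28 on the array) 5 were higher and 5 lower, led by msx1.S, msx1.L and zic1.S. Each share was 26.3%, against 11.4% higher and 12.39% lower of all probe sets, and the median was 0.10 (-0.08 on the deposited scale). The number higher was 3 without stage 10.5 replicate 3 or stage 12 replicate 1 and 2 without stage 12 replicate 2 or 3, and the number lower was 3 without stage 10.5 replicate 2 or stage 12 replicate 2 or 3. Mesoderm and muscle markers (55 on the array) gave 4 higher of 19 tested (21.1%, against 11.4% of all probe sets) and 0 lower. The number higher was again 4 without stage 12 replicate 3. It was 3 without any single stage 10.5 array or stage 12 replicate 2, and 5 without stage 12 replicate 1. The deposited scale gave 2 higher and median centring 5. The mean level of these markers ranged over 5.53 to 5.84 at stage 10.5 and 6.26 to 6.43 at stage 12 in log2 units. The largest was the muscle troponin gene tnni2.S, from 50.5, 46.1 and 20.3 to 614, 555 and 514 (3.44 ± 0.29), and a second probe set for it rose by 2.98. Of the other muscle genes, ckm.L read 62.9, 59.8 and 156 and then 129, 78.8 and 76.3, myl1.L 24.1, 20.8 and 15.5 and then 47.3, 32.3 and 22.5, and neither passed. Homeobox genes gsc.L and bix1.3.L rose from dim levels, gsc.L to 70.8, 114 and 65.7, and tbx2.L to 322, 176 and 181. Endoderm markers gave 2 higher and 2 lower of 9 tested (29 on the array), 22.2% each, against 11.4% and 12.39% of all probe sets. The 2 that fell were vegt.L and vegt.S, a gene that is also in the maternal list, and a2m.S and gata6.L rose. Stored and newly made RNA cannot be told apart here. The endoderm list gave 0 higher and 1 lower without stage 12 replicate 3. The number higher was 0 without stage 10.5 replicate 2 or 3 or stage 12 replicate 2 and 1 without replicate 1 of either stage, and the number lower was 1 without stage 10.5 replicate 1. Their part in the results above was not tested.

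**Figure D5:**
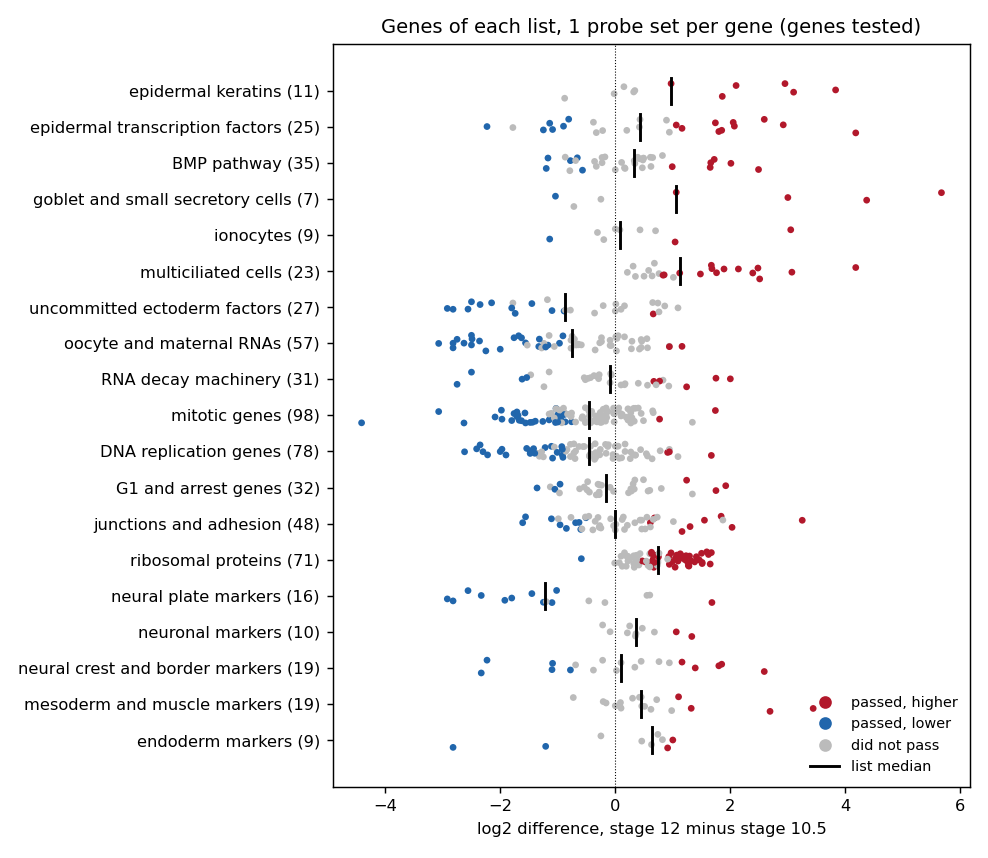
Log2 difference between stages for each tested gene of 19 lists, 1 probe set per gene, with red and blue points for genes that passed as higher or lower and black bars for list medians; the number tested is in brackets. The medians of multiciliated, keratin and ribosomal protein genes lie to the right of 0, and those of uncommitted ectoderm, maternal, mitotic and neural plate genes to the left.

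Several of the largest changes belonged to no list. The vesicle-traffic gene tbc1d24.2.L went from 22.1, 23.5 and 24.7 to 442, 644 and 668, a rise of 3.91 ± 0.25. Fatty acid 2-hydroxylase fa2h.L, which makes hydroxylated sphingolipids, went from 22.9, 18.15 and 24.6 to 910.2, 385 and 337, and the phosphodiesterase gdpd1.L from 38.7, 48.9 and 21.9 to 1725, 511 and 424. For both, replicate 1 was more than 2-fold above the other late arrays. Synaptotagmin syt1.L, a calcium sensor for vesicle release, rose by 3.73 ± 0.44, villin-like vill.S by 3.72 ± 0.32, the lectin fucolectin.S by 3.62 ± 0.31 and nxpe2.L by 3.6 ± 0.38.

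Among the falls, tdgf1.3.L, a Cripto-family co-receptor for Nodal, went from 3675, 2869 and 4426 to 121, 342 and 487, a difference of -3.64 ± 0.44. RNA-binding mex3b.S went from 601, 846 and 959.9 to 24.3, 77.3 and 103, and the Wnt-responsive zinc-finger factor sp5l.S from 178, 188 and 452 to 15.8, 6.13 and 11.4 (its other probe sets gave -3.17 and -2.62). The apelin receptor aplnr.S went from 104, 226 and 234 to 2.75, 5.87 and 5.09, the chemokine receptor ackr3.L from 238, 165 and 259 to 7.95, 12.56 and 20.5, and the coactivator cited2.L from 180.0, 119.6 and 221 to 5.73, 10.9 and 11.01. These 3 reached the bottom of the scale on all late arrays. The tetraspanin gene tspan1.L fell by 2.82 ± 0.32, and tspan1.S fell by 2.96 ± 0.66, a call lost without stage 10.5 replicate 2 or 3 (highest adjusted p 0.0603). The gene cbwd1.1.S fell by 3.11 ± 0.29. Of the 115 named probe sets that passed, 28 lost the call when some single array was left out. On the deposited scale 23 lost the call, and after median centring 12 did.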

How the data were processed

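One-colour Affymetrix Xenopus laevis arrays measured RNA in 12 samples of ectoderm explants, 6 of them used for the comparison. The values the authors deposited are linear intensities, 1 per probe set and array. The sources used here do not say how probes were summarised, background-corrected and scaled. Each value was taken as log2(deposited intensity + 16) and quantile normalised over all 12 arrays; fold changes on this scale understate changes of dim genes, and a "normalised intensity" is 2 to the power of the normalised value, minus 16. A filter removed the dimmest 25% by mean over all 12 arrays (3873 of 15491 probe sets).

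The 6 arrays labelled uninjected were fitted with limma 3.58.1 in R 4.3.3 (4 residual degrees of freedom, eBayes with an intensity trend), with Benjamini-Hochberg adjustment over 11618 probe sets, a threshold of 0.05 and no block. Injected arrays of an experiment deviate together with their uninjected partners, so they stayed out of the fit. Across the stages, arrays with the same number deviated from their group means with correlations of 0.174, -0.037 and 0.146. Arrays with different numbers did so with correlations from -0.202 to 0.209. The sources used here do not say whether both stages of a number came from the same experiment, so the block is an alternative. The code was tested on simulated data.

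Gene names come from the platform annotation, updated through RefSeq gene identifiers (9227 matched, 2 symbols changed). Names are used only for the 9304 probe sets with a single symbol (195 have several, 5992 have none). In this allotetraploid frog each gene can have a long-chromosome (.L) and a short-chromosome (.S) copy; they are counted as separate genes, and probes may cross-hybridise between them.

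The 19 gene lists and 12 families of egg and somatic or zygotic genes were chosen with earlier results of these data known. So was the comparison itself, and lists share members. A list is described by 1 probe set per gene, the brightest, with counts and medians and no test of the list. In the MCM6 family, egg and zygotic roles were first entered the wrong way round and were corrected from the RefSeq synonyms after the values had been seen. Named genes are the 15 largest rises and 15 largest falls that passed without overlap between stages, up to 6 members of each list with the smallest p, up to 3 of its brightest members that did not pass, up to 3 per marker list, all family members and the geminin probe sets. Names outside this rule (such as nek2.S, rps12.S, tbxt.S, elavl3.L or ckm.L) were chosen after their values were seen. The 19 alternatives run on each result changed the normalisation, pseudocount (1 or 64), filter (none or 50%), trend, arrays in the fit, a replicate block, averaging of stage 12 replicates 2 and 3, and each array left out in turn; another probe set per gene was tried for the lists. The fit of stage 12 replicate 1 alone was added after seeing the data.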

Additional observations from a re-analysis of the deposited data

How the results depend on the processing

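Of 1328 higher and 1440 lower probe sets, leaving out 1 array gave 716 to 1477 higher and 699 to 1642 lower, with both lowest counts without stage 12 replicate 2. Without it 1408 of the 2768 calls still passed, and without stage 12 replicate 3 1720 did, with fewer arrays in each fit. The deposited scale gave 514 higher and 1045 lower, and averaging stage 12 replicates 2 and 3 into 1 array gave 781 and 811. The replicate block gave 1304 and 1451; of the named genes it ended the calls on mcm6.2.S (adjusted p = 0.0543) and pabpc1.L (0.0575) and added one on klf17.L (0.024), and higher genes fell from 2 to 1 in the maternal and endoderm lists, with no other list count moved over 1.5 times. Other counts were 1762 and 1921 with all 12 arrays in 1 fit, 1685 and 1847 with the experiment as a random block there, 1352 and 1397 with the 6 arrays normalised alone, 1268 and 1368 with a pseudocount of 1, 1331 and 1446 with 64, 1300 and 1347 with no filter, 891 and 1039 with the lowest 50% left out, 1287 and 1380 without the trend, and 1929 and 1097 after median centring. Under median centring, 5 named genes that had not passed changed sign and passed as higher: cldn7.L (0.71), mcm7.L (0.67), rps18.L (0.78), rrm2.1.L (0.55) and ventx2.1.S (0.61). Changes of sign that passed in neither fit were not counted. Calls lost on the deposited scale were those on a2m.S, atp6v0d2.L, b3gnt5.S, ccna2.L, cgn.L, cldn6.1.S, dll1.L, e2f3.S, eif4e1b.S, epcam.S, foxa1.S, foxi1.L, foxo3.L, gsc.L, h1-8.S, id3, mcm6.2.S, pabpc1.L, pou5f3.1.L, pou5f3.2.L, prph.L, slbp.L and tfap2a.L, and after median centring those on b3gnt5.S, bmp2.L, ccna2.L, ccna2.S, cldn6.1.S, epcam.S, foxi1.L, id3, pabpc1.L, pou5f3.2.L, slbp.L and tfap2a.L. The cause was not tested. The named genes that passed did not overlap between stages, so leaving out 1 array could not change their sign. Dim levels, which have no detection call, limit 137 rises from and 245 falls to a mean below the 25th percentile of signal, whose sizes are uncertain.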

Other observations

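Several signalling genes outside the lists moved by large amounts, and they are given as values, chosen after their values were seen. The growth factor gene kitlg.L (Kit ligand) read 163, 129.6 and 88.0 at stage 10.5 and 1486, 1041 and 1175 at stage 12, in replicate order, a rise of 3.15 ± 0.27 (SE, n = 3 arrays per stage, limma adjusted p = 0.000706). Its receptor kit.S read 27.5, 30.1 and 8.30 and then 253.0, 322 and 292 on a probe set that rose by 3.06 ± 0.31, while another probe set of kit.S gave 0.57 and did not pass. The copy kit.L rose by 1.63 ± 0.36. Both ligand and receptor were thus higher on every stage 12 array on these 3 probe sets.

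The Wnt receptor fzd7.L was lower on 4 of its 5 probe sets, with differences from -2.06 to -1.65 on the log2 scale, and the fifth gave -0.88 (adjusted p = 0.0505). Other Frizzled receptors rose: fzd8.S by 1.98 and by 2.27 on its probe sets, and fzd10.S by 2.82 and by 2.07. The Notch ligand jag1.L went from 134.5, 156 and 183 to 17.9, 19.7 and 33.0, a difference of -2.15 ± 0.26. The retinoic acid-degrading enzyme cyp26a1.S went from 386, 475 and 431 to 78.26, 83.2 and 111, and the repressor tgif2.S from 1804, 1587 and 2143 to 232, 274 and 279, with late arrays close together in both.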
